A study of Homo sapiens with 2 samples.

Results

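Mitochondrial ribosomal protein genes are the nuclear genes that encode the protein subunits of the mitochondrial ribosome. They were chosen here by symbol, as protein-coding genes named MRPL or MRPS followed by a number and at most 1 letter from A to C. This rule found 78 of the 27655 genes in the authors' deposited table, 49 with large-subunit (MRPL) and 29 with small-subunit (MRPS) symbols. All 78 carry the description mitochondrial ribosomal protein in that table.

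The RNA came from PC9-BrM3 cells in routine culture, a subline of the human lung adenocarcinoma line PC9 selected for metastasis to brain. One group carried a short hairpin against the protocadherin gene PCDH1 (shPCDH1, genotype PCDH1 knockdown), and the other a control hairpin (shNC, genotype given as WT). Both groups share the cell line and the culture conditions, and the labels do not say how many hairpins or clones were used. GEO lists 1 sample in each group, and poly-A RNA was sequenced to ask how expression differs with and without the knockdown.

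Every fold change and p-value below is taken from the authors' deposited table, in which the code 8 is set against the code 7. The labels do not say which code is shPCDH1, so each direction is given as group 8 relative to group 7. PCDH1 itself had a log2 fold change of -1.38 ± 0.14, or 38.5% of its group 7 level, with an adjusted p of 1.76e-20 in the authors' deposited table. That value was not used to assign the codes. The figure after ± is the standard error that the deposited p-value implies if the test was a Wald test, and all 95% intervals rest on it. The values per library were not used, because their codes match no label, so levels, the spread between libraries and depth are not given. In bulk RNA, fewer cells of a kind and less RNA per cell cannot be told apart. For the same reason the expression of lung epithelial markers was not checked. The p-values measure the spread between the authors' libraries, which may be technical. The deposited table names 6 library codes, and the labels do not say whether these are separate cultures. Of 13 markers of leukocytes, astrocytes, stroma and endothelium, 11 were listed. COL1A1 was called higher at 1.04 ± 0.17 and PECAM1 lower at -1.73 ± 0.63, and the other 9 were not called, 5 of them with an adjusted p of 1.

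The mitochondrial ribosome sits in the matrix and translates the few proteins that mitochondrial DNA encodes, all of them subunits of the respiratory chain or ATP synthase. Its RNAs come from mitochondrial DNA, whereas all its proteins are encoded in the nucleus, made in the cytosol and imported. Some of them descend from bacterial ribosomal proteins and others exist only in mitochondria. Loss of single members, such as MRPS16, MRPS22 or MRPL44, causes inherited defects of oxidative phosphorylation in humans.

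Most members had slightly lower values in group 8. With calls taken at an adjusted p under 0.05 in the authors' deposited table, 12 of 78 members were lower, 1 was higher and 65 were not called. The 12 lower members are 15.4% of the list, close to the 11.2% of all 18002 genes with an adjusted p below 1 and to the 13.4% of the 13609 protein-coding genes among them. The 1 higher member is 1.28% of the list, against 10.4% of all such genes and 12.7% of the protein-coding ones. All 78 members had an adjusted p below 1. The share of lower calls is near the background, and the share of higher calls is below it. Lower by at least 0.5 on the log2 scale and called were 10 of 78 members, beside 8.11% of all genes with an adjusted p below 1.

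The sign of the fold changes stood further from the background than the lower calls did. The log2 fold change was below 0 for 67 of 78 members, or 85.9%, beside 50.5% of the 18002 genes and 49.6% of the protein-coding ones. The median log2 fold change of the members was -0.25, with quartiles of -0.40 and -0.086, while the median of protein-coding genes was 0.0048. An unadjusted p under 0.05 was found for 29 members, or 37.2%, close to the 37.8% of protein-coding genes. Of these, 28 had lower values, or 35.9% of the members, beside 16.7% of all 18002 genes and 19.2% of protein-coding ones. The 1 with a higher value is 1.28% of the members, beside 15.6% and 18.5%. At the ends of the range, 15 members, or 19.2%, had a log2 fold change of -0.5 or less, beside 16.8% of the 18002 genes. At 0.5 or more there were 2 members, or 2.56%, beside 18.0%.

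**Figure D1:**
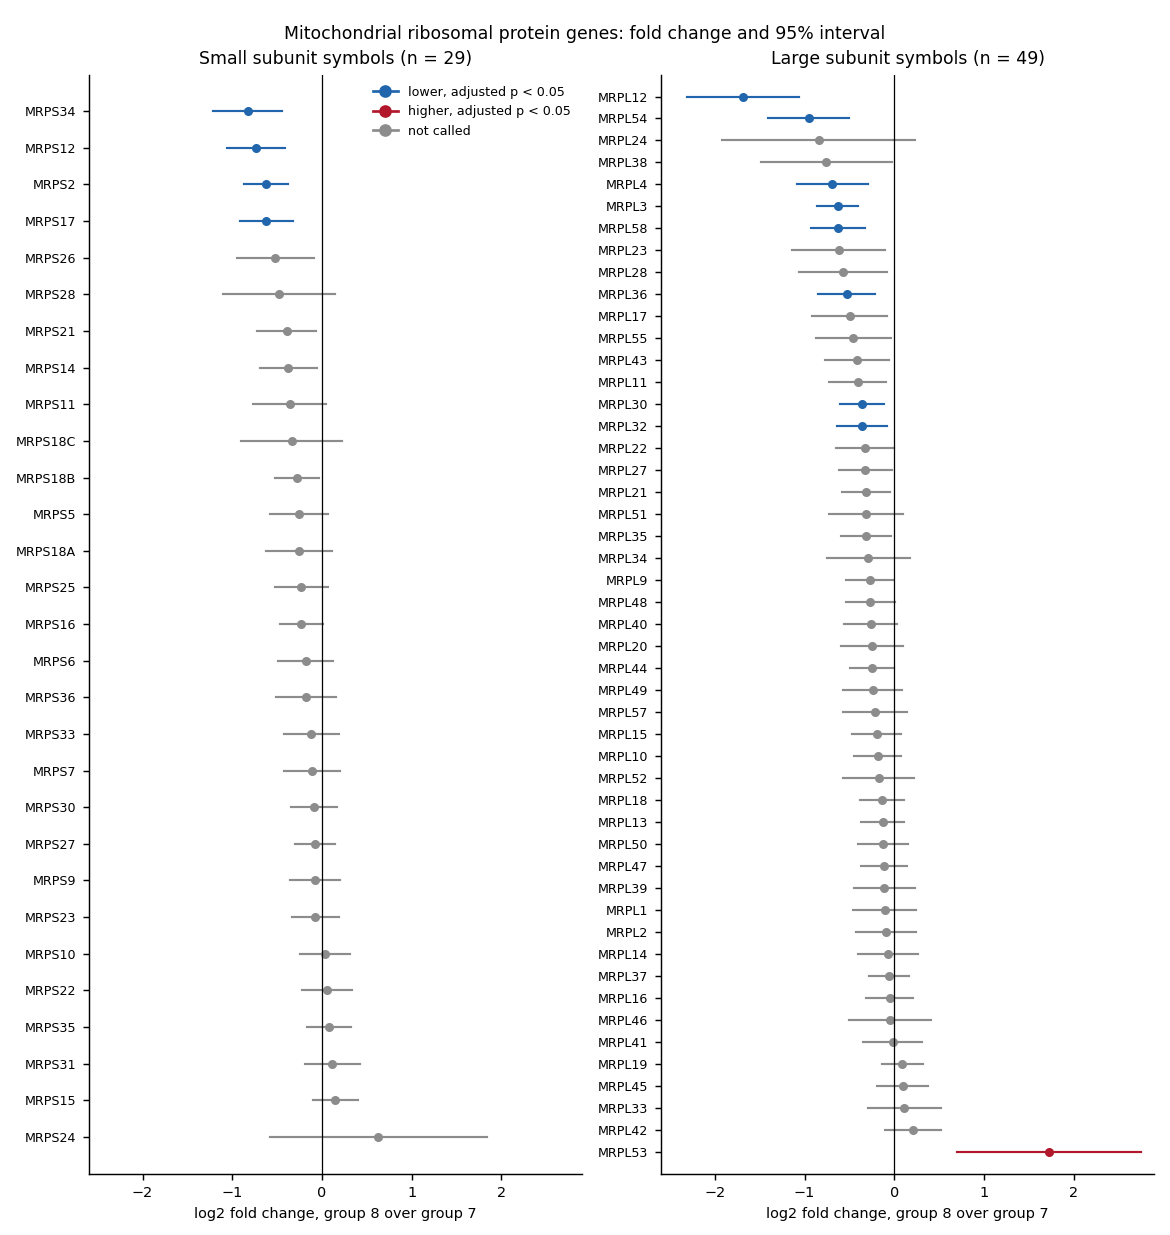
Log2 fold change (group 8 over group 7, x axis) of each of the 78 members, split by small-subunit and large-subunit symbol and ordered by value; bars are 95% intervals from the implied standard error. Of the 78 points, 67 lie left of 0, 12 are called lower (blue), and MRPL53 is the 1 member called higher (red).

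**Figure D2:**
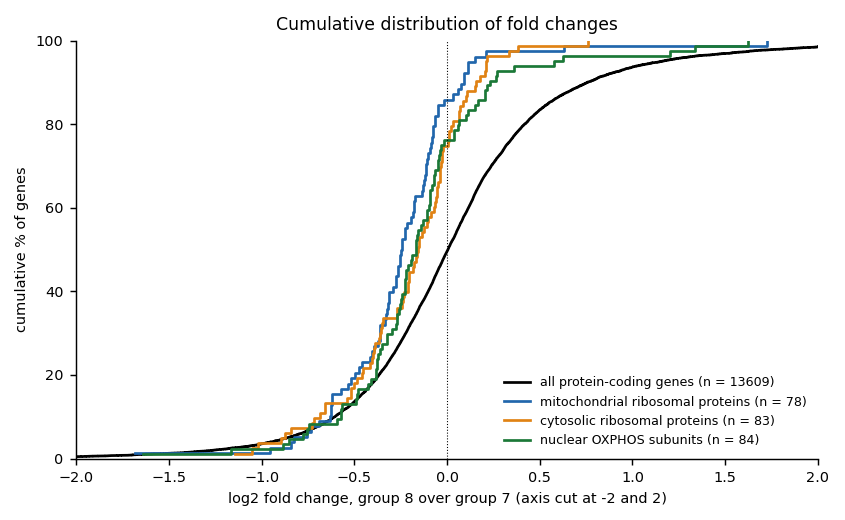
Cumulative percentage of genes (y axis) at or below each log2 fold change (x axis) for the members, 2 related lists and the 13609 protein-coding genes. The curve of the members reaches 85.9% at 0, where that of all protein-coding genes is at 49.6%.

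Among large-subunit genes, 8 of 49 were called lower (16.3%) and 1 higher (2.04%), beside 13.4% and 12.7% of protein-coding genes. Of the 49, 44 had values below 0, with a median log2 fold change of -0.26. At an unadjusted p under 0.05 there were 20 lower, or 40.8%, and 1 higher, or 2.04%, beside 19.2% and 18.5% of protein-coding genes. MRPL12, the subunit of the flexible stalk that recruits the elongation factors, had the lowest value of all members. Its log2 fold change was -1.69 ± 0.32 (95% interval -2.31 to -1.06), or 31.1% of the group 7 level, with an adjusted p of 3.79e-06 in the authors' deposited table. The gene (ENSG00000262814) lies on chromosome 17 at 81703357 to 81707526, plus strand. GENCODE release 29 places exons of another gene, AC139530.2, over 68.2% of the exon bases of MRPL12. Over those bases the 2 genes cannot be told apart, so the MRPL12 value is uncertain.

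MRPL54, a large-subunit protein with no bacterial counterpart, followed at -0.95 ± 0.23, or 51.6% of the group 7 level (ENSG00000183617, chromosome 19, 3762664 to 3768575, plus strand). No exon of another gene overlaps it, and its adjusted p was 0.000517 in the authors' deposited table. MRPL3 and MRPL4 belong to the conserved core of the large subunit. MRPL3 had the smallest adjusted p of any member, 1.4e-06, with a log2 fold change of -0.63 ± 0.12 (ENSG00000114686, chromosome 3, 131462212 to 131502983, minus strand). MRPL4 had -0.69 ± 0.20, or 61.9% of the group 7 level, with an adjusted p of 0.00498. These 3 genes stood at 51.6% to 64.6% of their group 7 level.

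MRPL58, a peptidyl-tRNA hydrolase that became a subunit of the ribosome, had -0.62 ± 0.15 and an adjusted p of 0.00058 in the authors' deposited table. The other lower large-subunit genes all have bacterial counterparts. MRPL36 had -0.53 ± 0.16, MRPL30 -0.36 ± 0.12 and MRPL32, whose product matures by cleavage through the m-AAA protease, -0.36 ± 0.14. MRPL32 lay nearest the threshold, with an adjusted p of 0.048, and with the adjustment run over all deposited p-values it was 0.0733, the 1 call lost in that way.

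MRPL53 was the exception. This large-subunit protein with no bacterial counterpart had a log2 fold change of 1.73 ± 0.52 (95% interval 0.70 to 2.75), or 3.31-fold higher in group 8, with an adjusted p of 0.00729 in the authors' deposited table. The gene (ENSG00000204822) lies on chromosome 2 at 74471958 to 74473322, minus strand. Its exons share 45.2% of their bases with CCDC142, which was also called higher at 1.13 ± 0.29 (adjusted p 0.00118). The 2 genes cannot be told apart over the shared bases, and the part of CCDC142 in the MRPL53 value was not tested.

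The remaining large-subunit genes were not called. At the base of the stalk, MRPL11 had -0.41 ± 0.16 and MRPL10 -0.18 ± 0.13, beside the lower MRPL12. MRPL1, the protein of the opposite stalk, had -0.11 ± 0.18. Around the exit of the peptide tunnel, MRPL23 had -0.62 ± 0.26, MRPL24 -0.84 ± 0.55, MRPL22 -0.33 ± 0.16 and MRPL45, which ties the ribosome to the inner membrane, 0.092 ± 0.14. In the central protuberance, MRPL38 had -0.76 ± 0.37, MRPL48 -0.26 ± 0.14, MRPL40 -0.26 ± 0.15 and MRPL46 -0.049 ± 0.23. The intervals of MRPL24 and MRPL38 were wide. MRPL42 had the highest value of the uncalled large-subunit genes, at 0.21 ± 0.16.

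Among small-subunit genes, 4 of 29 were called lower (13.8%) and 0 higher, beside 13.4% and 12.7% of protein-coding genes. Of the 29, 23 had values below 0, with a median of -0.23. At an unadjusted p under 0.05 there were 8 lower, or 27.6%, and 0 higher, beside the 19.2% and 18.5% of protein-coding genes given above. MRPS34, which has no bacterial counterpart, had the lowest value at -0.83 ± 0.19, or 56.3% of the group 7 level, with an adjusted p of 0.000289 in the authors' deposited table (ENSG00000074071, chromosome 16, 1771890 to 1773155, minus strand). MRPS12, the conserved protein of the decoding centre, had -0.74 ± 0.16 (ENSG00000128626, chromosome 19, 38930548 to 38933162, plus strand), with an adjusted p of 0.000127. MRPS2 and MRPS17, both with bacterial counterparts, had -0.62 ± 0.13 and -0.62 ± 0.15, with adjusted p values of 1.45e-05 and 0.000426. All 4 stood at 56.3% to 65.1% of their group 7 level.

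The other small-subunit genes were not called. MRPS26 had -0.52 ± 0.22, and MRPS16, MRPS22 and MRPS27, an RNA-binding pentatricopeptide repeat protein, had -0.23 ± 0.12, 0.056 ± 0.14 and -0.08 ± 0.11. MRPS24 had the highest small-subunit value at 0.63 ± 0.62 (95% interval -0.58 to 1.84), and 23.2% of its exon bases are shared with the readthrough gene URGCP-MRPS24. MRPS15 and MRPS31 followed at 0.15 ± 0.13 and 0.12 ± 0.16. MRPS30 and MRPS18A, which carry small-subunit symbols but sit in the large subunit, had -0.084 ± 0.13 and -0.25 ± 0.19. MRPS36, since assigned to the oxoglutarate dehydrogenase complex and not to the ribosome, had -0.18 ± 0.17.

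Precision allowed bounds for many members that were not called. For 29 of the 65, the 95% interval lay wholly between -0.5 and 0.5 on the log2 scale. Over all members, 66 of 78 intervals lay between -1 and 1, only that of MRPL12 lay wholly below -0.5, and only that of MRPL53 wholly above 0.5. Implied standard errors ran from 0.11 to 0.62 with a median of 0.16. A further 9 members had an adjusted p from 0.05 up to 0.10, all with values below 0. These were MRPL11, MRPS26, MRPS21, MRPL21, MRPL23, MRPL17, MRPL28, MRPL43 and MRPS14, at -0.62 to -0.32. With them, 21 members had values below 0 at an adjusted p under 0.10, or 26.9%, beside 14.3% of all 18002 genes and 16.8% of protein-coding ones.

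Members were also split by symbol number, as a proxy for origin. Those with low numbers, and MRPS24 and MRPL47, were taken as having bacterial counterparts, and all others as found only in mitochondria. Of the 46 members of the first kind, 9 were called lower (19.6%) and 0 higher, with a median of -0.28. The shares of protein-coding genes called lower and higher were 13.4% and 12.7%. Of those 46, 21 had an unadjusted p under 0.05, all with lower values, which is 45.7% beside 19.2% of protein-coding genes. Of the 32 members taken as found only in mitochondria, 3 were called lower (9.4%) and 1 higher (3.1%), with a median of -0.18. At an unadjusted p under 0.05, 7 of these 32 had lower values (21.9%) and 1 a higher one (3.1%). The origin of single genes was not checked, and MRPS36 is counted among the 32. The difference between these groups was not tested. The 13 called members lie on 8 chromosomes.

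The fold change varied with base composition, as it did across protein-coding genes. GC was taken from the longest basic protein-coding transcript of each gene in GENCODE release 29. Across the 78 members, Spearman's rho of log2 fold change with GC was -0.39, and across 13559 protein-coding genes it was -0.26. Both describe genes of the same libraries, which are not independent replicates. Among the 20 members with a GC of 55% or more, 6 were called lower and the median was -0.49, beside a median of -0.17 and 21.02% called lower for the 4482 protein-coding genes in that range. Among the 35 members from 45% to below 55%, 4 were called lower and the median was -0.23, beside -0.014 and 13.1%. Among the 23 members below 45%, 2 were called lower, MRPL3 and MRPL30, and the median was -0.13, beside 0.14 and 6.55%. In each range the members' median was the lower one. With a trend on GC and gene length removed, the members' median was -0.27 and that of protein-coding genes -0.055. The part of GC in the single calls was not tested.

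**Figure D3:**
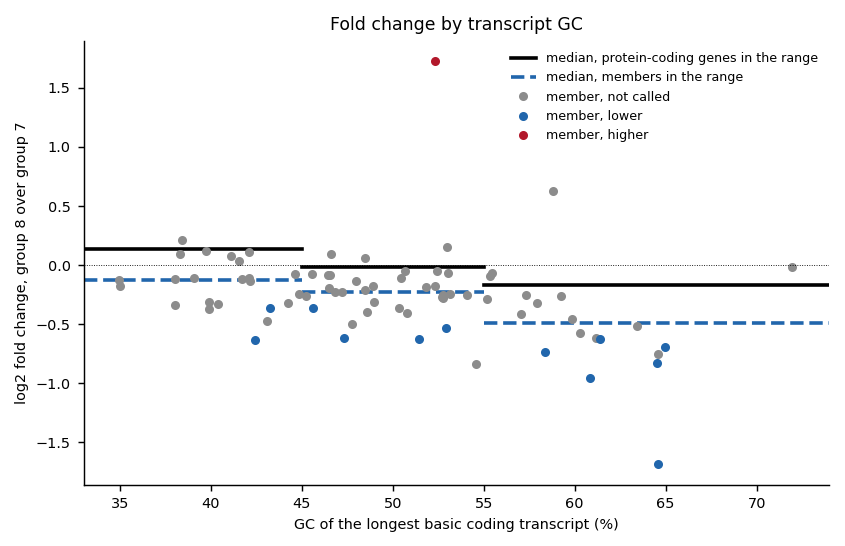
Log2 fold change (y axis) of each member against the GC content of its longest basic coding transcript (x axis, %); black bars give the median of all protein-coding genes in each of 3 GC ranges and dashed blue bars that of the members. The members' median is below that of all protein-coding genes in each range, at -0.13 against 0.14, -0.23 against -0.014 and -0.49 against -0.17.

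Promoters of these genes commonly carry sites for the factors NRF1, GABPA and YY1, which coordinate nuclear genes for mitochondria. RefSeq promoter windows (GRCh38.p14, 250 bases before to 50 after the first listed start) were found by symbol for 69 of 78 members, all 12 lower ones included, and for 10695 of the 13609 protein-coding genes. Each window was searched on both strands for 4 short motifs, none of which contains another. The ETS motif of GABPA, CCGGAAG, was present in 29 of 69 members, or 42.0%, against 18.4% of protein-coding promoters. The YY1 motif ATGGCGG was present in 24, or 34.8%, against 10.0%. The NRF1 motif GCATGCG was present in 7, or 10.1%, against 6.18%. The E-box CACGTG, which MYC can bind and which reads the same on both strands, was present in 6, or 8.70%, against 9.84%.

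The ETS motif was present in 6 of the 12 lower members and in MRPL53, and the median log2 fold change was -0.26 with it and -0.22 without it. For YY1 the medians were -0.12 with the motif and -0.26 without it, and 4 of the 12 lower members held it. Only 1 lower member each held the NRF1 motif (MRPL32) and the E-box (MRPL36). A match describes the letters of the window and does not show that a factor binds. The 4 windows below belong to the member with the lowest value, the lowest small-subunit member, the member with the smallest adjusted p and the 1 higher member, so that like and unlike promoters can be compared. Capitals mark matches to the 4 motifs, and each sequence runs 5′ to 3′ on the strand of its gene. MRPL12 (chr17:81703117-81703416, plus strand) has none of them. MRPS34 (chr16:1773085-1773384, minus strand) has 3 ETS matches and 1 YY1 match. MRPL3 (chr3:131502922-131503221, minus strand) has 1 ETS match, and MRPL53 (chr2:74472631-74472930, minus strand), which moved the other way, has 2.
MRPL12: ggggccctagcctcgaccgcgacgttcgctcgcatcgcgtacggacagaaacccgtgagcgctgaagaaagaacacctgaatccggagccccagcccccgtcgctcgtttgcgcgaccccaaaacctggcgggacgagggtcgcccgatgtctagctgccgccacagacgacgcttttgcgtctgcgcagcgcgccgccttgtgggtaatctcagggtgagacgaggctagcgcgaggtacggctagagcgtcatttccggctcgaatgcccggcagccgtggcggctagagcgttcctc
MRPS34: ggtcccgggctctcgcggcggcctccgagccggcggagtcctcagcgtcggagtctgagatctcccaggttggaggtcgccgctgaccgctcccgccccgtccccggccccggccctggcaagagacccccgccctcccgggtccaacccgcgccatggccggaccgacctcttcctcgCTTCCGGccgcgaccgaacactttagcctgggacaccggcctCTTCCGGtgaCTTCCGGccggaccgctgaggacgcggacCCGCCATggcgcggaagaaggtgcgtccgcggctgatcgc
MRPL3: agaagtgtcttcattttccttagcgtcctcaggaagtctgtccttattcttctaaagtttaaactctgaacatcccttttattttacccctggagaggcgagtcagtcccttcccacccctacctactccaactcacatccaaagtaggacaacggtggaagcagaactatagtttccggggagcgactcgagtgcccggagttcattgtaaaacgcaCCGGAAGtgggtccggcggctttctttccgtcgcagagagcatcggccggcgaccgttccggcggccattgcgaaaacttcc
MRPL53: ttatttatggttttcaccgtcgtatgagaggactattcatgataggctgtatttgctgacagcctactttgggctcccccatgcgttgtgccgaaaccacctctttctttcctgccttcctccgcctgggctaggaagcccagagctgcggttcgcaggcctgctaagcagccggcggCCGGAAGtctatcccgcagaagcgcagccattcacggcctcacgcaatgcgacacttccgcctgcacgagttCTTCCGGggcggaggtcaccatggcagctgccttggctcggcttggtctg

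Many members start head to head with another protein-coding gene, so that 2 genes lie back to back on opposite strands. In the deposited coordinates, 28 members had such a neighbour with starts within 1000 bases. MRPS11 and MRPL46, at -0.36 ± 0.21 and -0.049 ± 0.23, are each other's neighbour, which leaves 26 members beside other genes. All 26 members had values below 0 (median -0.28), 6 of them called lower, whereas 11 of the 26 neighbours had values below 0 (median 0.12). Of those neighbours, 1 was called lower, 5 were called higher and 20 were not called. Among the 13609 protein-coding genes, 13.4% were called lower and 12.7% higher. The difference between members and neighbours was not tested. MRPL54 was lower while its neighbour APBA3 was higher at 0.51 ± 0.20, and MRPL30 was lower while MITD1 was higher at 0.62 ± 0.16. PPP1R10 beside MRPS18B, SLC7A7 beside MRPL52 and ZNF189 beside MRPL50 were called higher at 0.71, 1.60 and 1.01, next to members that were not called.

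The 1 lower neighbour was SARS2, the mitochondrial seryl-tRNA synthetase, at -1.50 ± 0.37 (adjusted p 0.000539 in the authors' deposited table). SARS2 covers 16.3% of the exon bases of MRPS12, and the libraries do not mark strand, so reads in that stretch belong to either gene. Among the 26, the spans of 12 members overlap the neighbour itself, though MRPS18B and MRPL14 share 0% of their exon bases. Over all 78 members, 44 overlap the span of another listed gene on either strand, 7 of the 12 lower members among them. Of the 78, 41 share exon bases with another GENCODE gene. Besides MRPL12 and MRPS12, the lower members that do are MRPS17 (27.0%), MRPL4 (21.4%), MRPL30 (19.5%), MRPS2 (14.4%) and MRPL32 (0.68%). Without the 44, 5 members were called lower and 0 higher, with a median of -0.19. MRPL12 is still among these 5, because AC139530.2 is not a listed gene.

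**Figure D4:**
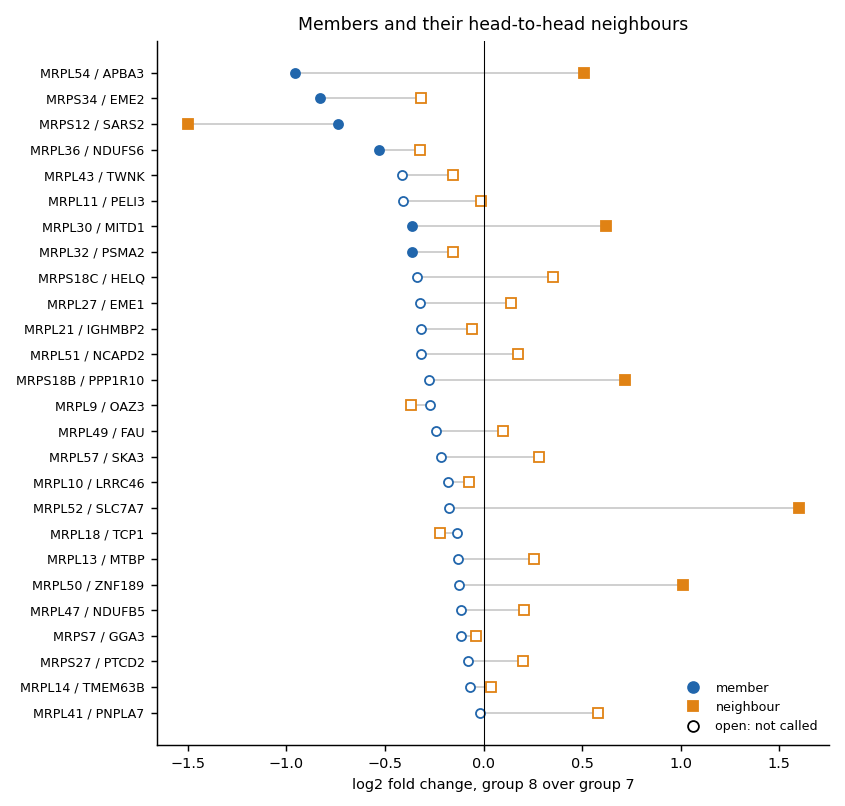
Log2 fold change (x axis) of 26 members (blue circles) and of the protein-coding gene that starts head to head with each within 1000 bases (orange squares); filled symbols have an adjusted p under 0.05. All circles lie left of 0, whereas 11 of the 26 squares do.

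Other genes of mitochondrial translation were described from lists of known members. Of 5 mitoribosomal proteins with other symbols, AURKAIP1 was called lower at -0.71 ± 0.22, and DAP3, a GTP-binding protein of the small subunit, had 0.25 ± 0.13 with no call. Of 27 genes for ribosome assembly and rRNA modification, 6 were lower (22.2%) and 1 was higher (3.70%), beside 13.4% and 12.7% of protein-coding genes. Of the 27, 24 had values below 0, and the median was -0.21. The lower ones were MRM1 and MRM3, methyltransferases of the large-subunit rRNA, at -0.83 ± 0.27 and -0.82 ± 0.22, RBFA, a small-subunit maturation factor, at -0.75 ± 0.23, MTERF4 at -0.62 ± 0.16, NGRN at -0.56 ± 0.15 and TRMT2B, an rRNA and tRNA methyltransferase, at -0.49 ± 0.13. MTERF3 was higher at 0.41 ± 0.14.

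Of 17 translation factors, 4 were lower (23.5%) and 2 higher (11.8%), beside the same 13.4% and 12.7%, with a median of -0.051. TACO1, the activator of COX1 translation, had -0.76 ± 0.18, the peptide deformylase PDF -0.75 ± 0.22, and the elongation factors GFM1 and TUFM -0.50 ± 0.13 and -0.45 ± 0.14. GFM2, an elongation factor G homologue that acts in ribosome recycling, was higher at 0.42 ± 0.14, as was the release factor gene C12orf65 at 0.79 ± 0.20. Of 6 mitochondrial transcription genes, TEFM was higher at 0.74 ± 0.24 and 0 were lower. POLRMT, the polymerase, and TFAM had -0.24 ± 0.11 and -0.056 ± 0.12. At an unadjusted p under 0.05 that list had 2 lower and 2 higher values. Of 11 regulators of mitochondrial genes, 2 were lower (18.2%) and 0 higher, also at an unadjusted p under 0.05. These were PPRC1, a coactivator of the PGC-1 family, at -0.77 ± 0.13 (adjusted p 2.76e-07 in the authors' deposited table), and MYC at -0.60 ± 0.12 (adjusted p 9.64e-06). NRF1, GABPA and YY1 had -0.095 ± 0.18, 0.054 ± 0.20 and -0.12 ± 0.15 with no call.

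Of 83 cytosolic ribosomal protein genes chosen by symbol, 14 were lower (16.9%) and 1 was higher, beside 13.4% and 12.7% of protein-coding genes. The median of the 83 was -0.16, with 74.7% of values below 0. RPL15, RPL22 and RPL36A were among the lower ones at -0.90 ± 0.12, -0.84 ± 0.12 and -1.15 ± 0.23, and RPS27 was higher at 0.76 ± 0.20. At an unadjusted p under 0.05, 19 of the 83 had lower values (22.9%) and 2 had higher ones (2.41%). The shares of protein-coding genes were 19.2% and 18.5%. Of 84 nuclear subunits of oxidative phosphorylation, 11 were lower (13.1%) and 0 higher, with a median of -0.17 and 76.2% below 0. At an unadjusted p under 0.05 there were 21 with lower values, or 25%, and 3 with higher ones, or 3.57%; for protein-coding genes these shares were 19.2% and 18.5%. The complex I subunits NDUFV2 and NDUFS7 had -1.64 ± 0.39 and -0.88 ± 0.22, the complex III subunits UQCR10 and CYC1 -0.74 ± 0.19 and -0.48 ± 0.14, and the complex IV subunit COX8A -0.85 ± 0.24. ATP5S, which the symbol rule also took, had -0.59 ± 0.17. Of the 13 protein-coding genes of mitochondrial DNA, 6 were lower (46.2%) and 0 higher, with a median of -0.43. At an unadjusted p under 0.05, 8 of the 13 were lower (61.5%) and 0 higher. Among the 6 called lower, MT-CO3 had the lowest value at -0.78 ± 0.13, followed by MT-ND2 at -0.61 ± 0.17 and MT-ND3 at -0.47 ± 0.14. MT-CO2, MT-CYB and MT-ND1 had -0.46 ± 0.13, -0.43 ± 0.15 and -0.39 ± 0.15. MT-ATP8 and MT-ATP6 had -0.75 ± 0.37 and -0.44 ± 0.20 with no call. The differences between lists were not tested.

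**Figure D5:**
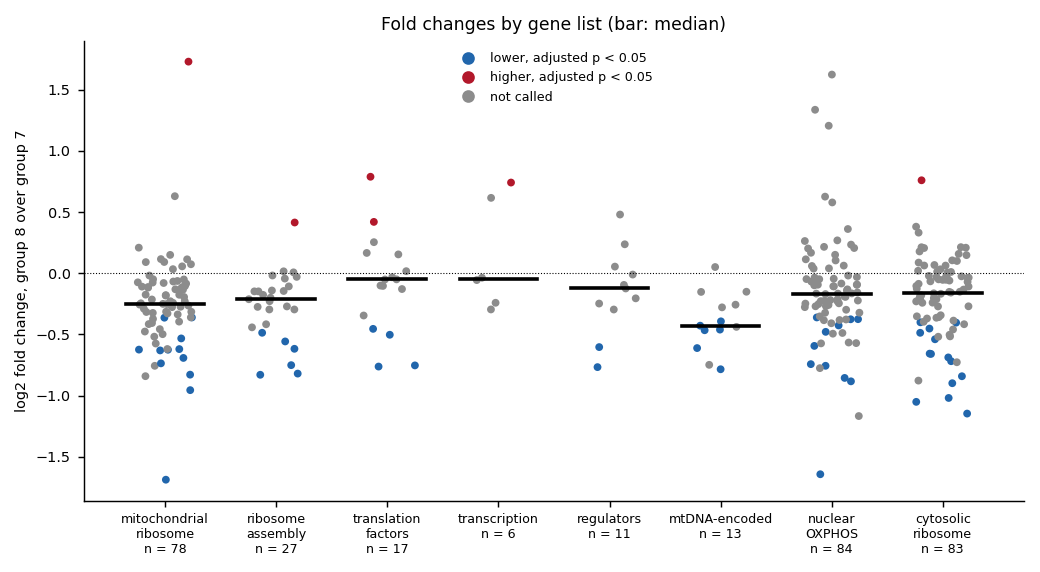
Log2 fold change (y axis) of each gene in the mitochondrial ribosome and 7 related lists (x axis, with the number of genes); black bars are medians and colours mark calls at an adjusted p under 0.05. All 8 medians lie below 0, from -0.43 for the genes encoded by mitochondrial DNA to -0.046 for mitochondrial transcription.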

How the data were processed

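RNA of PC9-BrM3 cells was sequenced after poly-A selection, without a step that marks strand, per the labels' protocols. The authors' tools, as listed without roles in the submitters' processing notes, were DESeq2 1.20.0, featureCounts 1.5.0-p3, HISAT2 2.0.5 and CASAVA. The log2 fold change, the p-value and the adjusted p-value of each gene are the authors' deposited values, per the file headers. Gene length, start and end are other deposited annotation. All 27655 identifiers, names, starts, ends and lengths equal those of GENCODE release 29 (GRCh38); the authors' build is not given in the sources used here. Another 20 columns, of values per library or coded group, match no label and were not used, so no count model was fitted and depth is unknown.

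Standard errors are the absolute log2 fold change over the normal quantile of the deposited p-value. Calls are the authors' adjusted p under 0.05, made across all genes; 18002 genes had one below 1. Lists are described by counts and medians, with no test. The genes named are PCDH1, all called members, the 5 highest and 5 lowest members, members with a described place in the ribosome, up to 6 called genes of each related list by adjusted p, and genes that overlap or start head to head with called members; some genes of the cytosolic list are not reported here. The 9 members just past the threshold, MTERF3, the neighbours of uncalled members, URGCP-MRPS24 and the uncalled genes of related lists were chosen after their values were seen. All members and lists were chosen with earlier results of these data known. Python 3.11.15, pandas 2.3.3 and scipy 1.17.1 were used, and the error and adjustment steps were tested on simulated data.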

Additional observations from a re-analysis of the deposited data

How the results depend on the processing

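Of 82 alternative values for the counts, medians, promoter shares and overlaps, 64 stayed within 1.5 times the reported count or within 1 error of the reported value, and no median of the members changed sign. At an adjusted p threshold of 0.10, 21 members were lower (7 small-subunit and 14 large-subunit), or 26.9% beside 14.3% of all genes, as were 18 nuclear OXPHOS genes, 2 mitoribosomal proteins of other symbols and 1 transcription gene, and 1 OXPHOS gene was higher. At 0.01, 9 cytosolic ribosomal and 7 OXPHOS genes were lower, 0 proteins of other symbols were lower, and 1 translation factor, 0 assembly genes and 0 transcription genes were higher. With a minimum absolute log2 fold change of 1, 1 member was lower, or 1.28% beside 2.39% of all genes. Without members whose span overlaps another listed gene, 5 were lower, MRPL12 among them, and 0 higher. By the mean, the transcription list stood at 0.12 in place of its median of -0.046. In the 100 bases around the start, 0% of members held the E-box, beside 3.93% of protein-coding promoters. The cause of these changes was not tested, except that thresholds and left-out genes change the counts by construction. Removing the GC and length trend, and leaving out members that share at least 50% of their exon bases, were chosen after seeing the data; 11 members were lower in the latter. No paired analysis was possible because GEO lists 1 sample per group and no value per library was used, and no replicate could be left out for the same reason.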
